A study of Mus musculus with 8 samples.

Results

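The brain-derived neurotrophic factor gene Bdnf, the related factors and their receptors were followed in the striatum of 8 mice, as 7 of 18193 measured genes and 28 of 45037 probe sets. They are every probe set that the array annotation assigns to 1 gene alone among Bdnf, Ntrk2, Ntrk3, Ngfr, Sort1, Gdnf and Gfra1. An eighth gene of the set, the neurotrophin gene Ntf3, was not analysed here. Ntrk2 and Ntrk3 had 8 probe sets each, Ngfr, Sort1 and Gfra1 3 each, Bdnf 2 and Gdnf 1. The mutant group was 4 CHL2 mice, Q150/Q150 knock-in animals whose own Huntington's disease gene, Htt, holds a stretch of 150 CAG repeats that comes from the first exon of the human gene. They were set against 4 wild-type mice. All were C57BL/6 X CBA F1 hybrids aged 22 months, and each gave 1 array of whole striatum. CHL2 mice 141, 153 and 154 were female and 191 was male, while wild-type mouse 161 was female and 170, 180 and 200 were male.

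Neurotrophins are secreted proteins that keep neurons alive and shape their synapses. Each binds a receptor tyrosine kinase, BDNF binding TrkB (Ntrk2) and neurotrophin-3 chiefly TrkC (Ntrk3), and all of them bind the death-domain receptor Ngfr. Their uncleaved precursors bind Ngfr together with the sorting protein sortilin (Sort1). Most BDNF protein of the striatum is made in cortical neurons and carried down their axons, so the striatum holds the receptors more than the message. GDNF, a factor best known for its support of dopamine neurons, binds Gfra1, which then engages the kinase Ret.

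In the CHL2 striatum, probe sets of Ntrk3, Sort1 and Gdnf were called lower, and no member was called higher. Of the 28 probe sets, 5 fell and 0 rose at an adjusted p under 0.05, where over all probe sets 3.44% fell and 3.26% rose (6.70% in either direction). The 5 were 3 of 8 for Ntrk3, 1 of 3 for Sort1 and the only 1 for Gdnf. Each of the 5 lost its call in some of the alternatives given below. A log2 change here is CHL2 minus wild type, adjusted for sex. Of the 28, 22 were below 0, where 49.3% of all probe sets were. Ntrk3 gave 8 of the 22 and Ntrk2 gave 6, so the 22 do not stand for as many genes. The median of the 28 was -0.14, against 0.00307 over all probe sets. For 7 of the 28 every CHL2 value lay below every wild-type value, as for 7.07% of all probe sets. The reverse held for 0 of the 28 and for 8.34% of all probe sets. Signal was under 5 on the log2 scale in all 8 mice for 8 of the 28, as for 46.0% of all probe sets, and such dim probe sets measure differences poorly. No member was called for sex (lowest adjusted p = 0.484), nor did the effect of genotype pass for a difference between the sexes (lowest adjusted p = 0.997). Before adjustment 2 of the 28 had an interaction p under 0.05, as did 4.04% of all probe sets, and after it 0 passed anywhere.

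**Figure D1:**
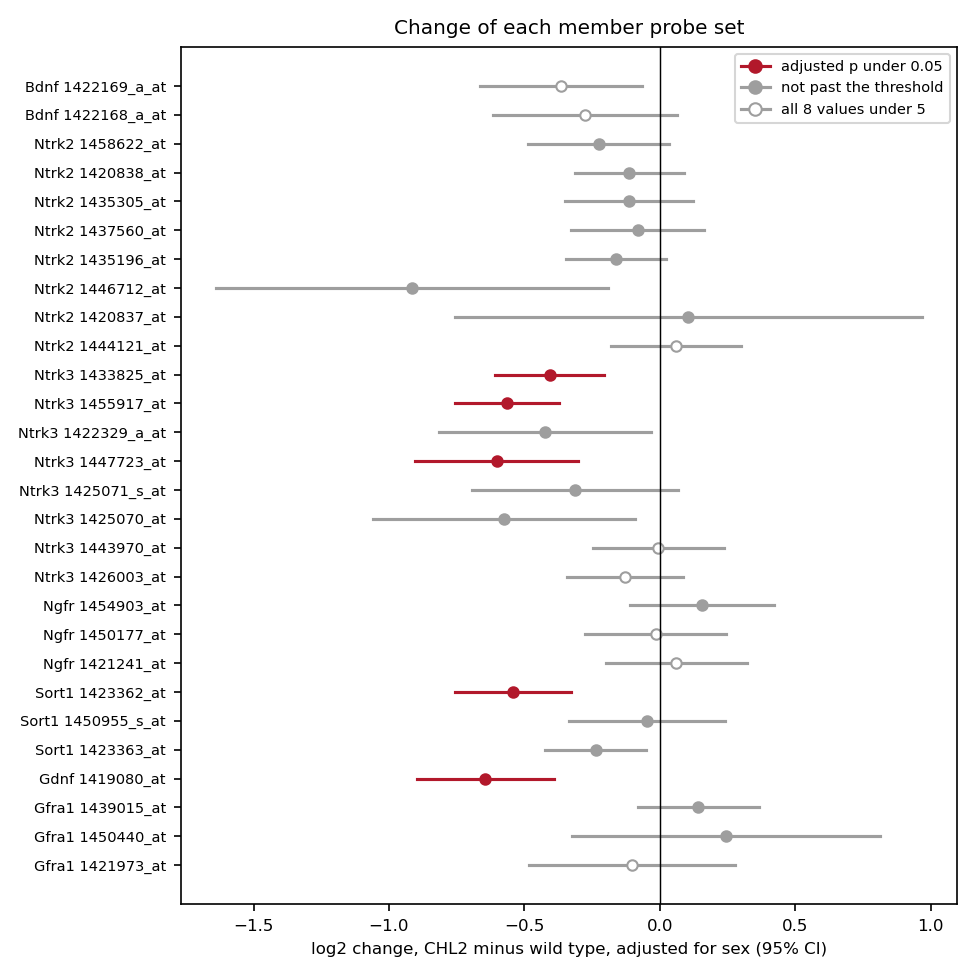
Log2 change, CHL2 minus wild type and adjusted for sex (x axis), of each of the 28 member probe sets (y axis), with 95% confidence intervals from limma. Of these, 5 passed an adjusted p under 0.05, and all 5 lie below 0: 3 of Ntrk3, 1 of Sort1 and 1 of Gdnf.

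The arrays were alike in level, with medians of 4.95 to 4.98 and pairwise correlations of 0.983 to 0.996. The tissue carried the marks of striatum: 17 of 17 measured medium spiny neuron markers stayed above the dim level, and 16 of them fell in the CHL2 mice, with a mean level of 9.98 to 10.2 in CHL2 mice against 11.3 to 11.4 in wild-type mice. In whole tissue, fewer cells of a type and less RNA per cell cannot be told apart. Wild-type mouse 170 stood apart in RNA quality. Its 3' minus 5' difference for the beta-actin control probe sets was 2.65, against 1.23 to 1.51 in the CHL2 mice and 1.36 to 1.43 in the other wild-type mice. For Gapdh it was 1.37, against 0.321 to 0.431 in the CHL2 mice and 0.322 to 0.339 in the other wild-type mice. Mouse 170 was the lowest wild-type animal for 10 of the 28 member probe sets and the highest for 7, while wild-type mouse 180 was the highest for 13 and CHL2 mouse 191 the lowest of its group for 9. The part of mouse 170 in the results was not tested beyond leaving it out. The 3 female CHL2 mice face 1 female wild-type mouse, 161, and 1 male CHL2 mouse, 191, faces 3 males, so mice 161 and 191 weigh most in the sex-adjusted values, and without 191 or 161 the change comes from the females or the males alone. Without 161 none of the 28 passed and without 191 1 did, against 5 in each case when sex was also left out of the fit. Without mouse 170, 7 passed, and without mouse 200, 3 did.

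Among the ligands, Bdnf itself was near the limit of detection. Its brighter probe set, 1422169_a_at, read 4.48, 3.94, 4.21 and 3.76 in CHL2 mice 141, 153, 154 and 191, against 4.57, 4.06, 4.27 and 4.05 in wild-type mice 161, 170, 180 and 200. The groups overlapped, with the lowest value in the male CHL2 mouse and the highest in the female wild-type mouse. The sex-adjusted log2 change was -0.36 (95% CI -0.66 to -0.07, adjusted p = 0.159), and the plain difference of the group means was -0.14. The other probe set, 1422168_a_at, designed on the same target sequence, read 3.60, 3.85, 4.16 and 3.25 in the CHL2 mice and 4.01, 3.53, 3.88 and 3.59 in the wild-type mice, with a log2 change of -0.28 (95% CI -0.62 to 0.06, adjusted p = 0.383). Its plain difference of means was -0.04, and with sex left out it was 0.05 without mouse 161 and 0.12 without mouse 191. Female mice read higher for Bdnf by 0.45 and 0.48 on the log2 scale in the same fit (unadjusted p = 0.00748 and 0.0105, neither past adjustment).

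The mice stood in the same order, from high to low, for Bdnf 1422168_a_at and for the mean of 13 cortical neuron markers: 154, 161, 180, 153, 141, 200, 170, 191. The brighter Bdnf probe set, on the same target sequence, did not follow that order (161, 141, 180, 154, 170, 200, 153, 191). No other of the 10 marker lists had the order of either Bdnf probe set, and all values of both lay under 5. The cortical mean was 6.72, 6.81, 7.28 and 6.43 in CHL2 mice 141, 153, 154 and 191, and 7.14, 6.64, 6.99 and 6.64 in wild-type mice 161, 170, 180 and 200. The vesicular glutamate transporter gene Slc17a7, a defining marker of cortical output neurons picked here after its values were seen, spanned 4.59 in CHL2 mouse 191 to 8.03 in CHL2 mouse 154. Of the 13 markers, 2 fell (Lmo4 and Fezf2) and 1 rose (Nrn1), 1 lay under 5 in all mice, and the list's means overlapped between the groups. The part of cortical RNA in the Bdnf values was not tested.

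Gdnf was 1.56-fold lower in the CHL2 mice. Probe set 1419080_at read 4.29, 4.15, 4.35 and 4.62 in CHL2 mice 141, 153, 154 and 191, against 5.12, 5.11, 4.96 and 5.08 in wild-type mice 161, 170, 180 and 200. Every CHL2 value lay below every wild-type value. The log2 change was -0.64 (SE 0.11, adjusted p = 0.00888), from means of 4.35 ± 0.20 in CHL2 and 5.07 ± 0.07 in wild-type mice (SD, n = 4 each). In the females alone, without mouse 191, it was -0.86 (adjusted p = 0.0224), and in the males alone, without mouse 161, it was -0.43 (adjusted p = 0.188). Since 5 of the 8 values lay under 5, the call was lost when values were held at that level (log2 change -0.09, adjusted p = 0.312). Gdnf of the mouse striatum is made largely by parvalbumin interneurons. Their marker Pvalb, which lies outside the fixed naming rule, read 7.84, 8.09, 8.91 and 8.29 in the CHL2 mice. In the wild-type mice Pvalb read 8.12, 7.84, 8.27 and 8.39, with overlapping groups (log2 change 0.14, adjusted p = 0.844). Of the 12 interneuron markers in its list, 9 had changes below 0, as did 48.8% of all genes, with a median of -0.21. Of the 12, 1 was called lower, as were 4.73% of all genes. The part of these cells in the Gdnf values was not tested.

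The start-site windows of Bdnf and Gdnf that share the core of the cAMP response element are shown. Camk4 and Creb1, described further on, act through the whole element, and whether they act on these windows was not tested. Each run gives the 250 bases before a transcription start of the RefSeq table, build GRCm38.p6, plus strand, with that core in capitals (TGACG, here read on the opposite strand as CGTCA).
Bdnf chr2:109692186-109692435: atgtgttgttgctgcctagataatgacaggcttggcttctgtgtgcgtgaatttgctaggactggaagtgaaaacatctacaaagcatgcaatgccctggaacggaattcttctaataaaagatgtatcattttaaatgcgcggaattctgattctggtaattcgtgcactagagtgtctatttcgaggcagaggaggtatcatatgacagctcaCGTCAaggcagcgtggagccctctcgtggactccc
Gdnf chr15:7809798-7810047: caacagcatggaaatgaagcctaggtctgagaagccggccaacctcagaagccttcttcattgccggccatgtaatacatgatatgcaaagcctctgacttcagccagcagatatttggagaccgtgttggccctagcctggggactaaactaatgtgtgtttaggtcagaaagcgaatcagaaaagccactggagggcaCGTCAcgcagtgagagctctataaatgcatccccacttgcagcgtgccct
The core lies 31 to 35 bases before the start in Bdnf and 46 to 50 bases before it in Gdnf. Both strands of the full windows, 250 bases before to 50 after a start, were searched. The core occurred in 2 of the 12 windows that the table holds for 5 of the measured members, and in 20.8% of all 32851 windows. Of the 12, 7 were Bdnf windows and 2 were Gdnf windows, and only the windows printed here held it. The whole element TGACGTCA occurred in 0 of the 12 and in 1.79% of all windows, and it contains the core. The E-box CACGTG occurred in 0 of the 12 and in 7.15% of all, and the CArG box in 0 of the 12 and in 1.63% of all.

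The other ligands gave no call. Of 10 measured neurotrophin and GDNF family ligand genes, each represented by its brightest probe set, Gdnf alone fell and 0 rose, where over all genes 4.73% fell and 4.54% rose (9.27% in either direction). Of these, 5 lay under 5 in all mice, among them Ntf5, the gene of neurotrophin-4. The median log2 change was -0.12, against 0.00525 over all genes. The GDNF relative neurturin, Nrtn, had a log2 change of -0.16 at an adjusted p = 0.398, and pleiotrophin, Ptn, one of -0.11 (adjusted p = 0.652). The cytokine gene Lif stood at -0.23 (adjusted p = 0.443), and Manf, a stress-induced factor of the endoplasmic reticulum, at 0.20 (adjusted p = 0.638).

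Among the receptors, Ntrk2, which encodes the BDNF receptor TrkB, was bright and was not called on any of its 8 probe sets. Its brightest, 1458622_at, read 9.71, 9.49, 9.95 and 10.04 in CHL2 mice 141, 153, 154 and 191, against 10.01, 10.18, 10.24 and 10.18 in wild-type mice 161, 170, 180 and 200. One CHL2 mouse, the male 191, lay just above the female wild-type mouse. The log2 change was -0.23 (95% CI -0.49 to 0.04, adjusted p = 0.348). The 5 brightest probe sets, with values of 9.11 to 10.24, all had changes below 0, between -0.23 and -0.08, with adjusted p of 0.341 to 0.778. Their intervals together ran from -0.49 to 0.16 on the log2 scale. That range covers these 5 probe sets alone, and the interval of the dimmer 1446712_at, described below, reached -1.64. For 1 of the 5, 1435196_at, every CHL2 value (9.11 to 9.23) lay below every wild-type value (9.26 to 9.38). Ntrk2 yields a full-length kinase and a truncated form abundant in astrocytes, and which form each probe set reads was not analysed here.

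The remaining Ntrk2 probe sets were dimmer or scattered. Probe set 1446712_at read 5.38, 6.01, 6.52 and 5.97 in the CHL2 mice and 7.14, 7.20, 6.66 and 6.01 in the wild-type mice, a log2 change of -0.92 with a wide interval (95% CI -1.64 to -0.19, adjusted p = 0.146). Probe set 1420837_at read 6.05 to 6.59 in the CHL2 mice and 6.00 to 6.75 in 3 wild-type mice, with 4.94 in wild-type mouse 170, the animal with the largest 3' minus 5' difference. Its log2 change was 0.11 with mouse 170 and -0.15 without it, neither of them called. The last, 1444121_at, was under 5 in all mice.

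Ntrk3, which encodes the neurotrophin-3 receptor TrkC, fell on its 2 brightest probe sets. On 1455917_at it read 8.21, 8.17, 8.03 and 8.13 in CHL2 mice 141, 153, 154 and 191, against 8.74, 8.65, 8.61 and 8.70 in wild-type mice 161, 170, 180 and 200. The groups lay well apart, and each varied little within itself. The log2 change was -0.56 (SE 0.09, adjusted p = 0.00443), 1.48-fold lower, with means of 8.14 ± 0.08 in CHL2 and 8.68 ± 0.06 in wild-type mice (SD, n = 4 each). On the brightest, 1433825_at, the values were 8.41, 8.34, 8.20 and 8.49 in the CHL2 mice and 8.74, 8.84, 8.85 and 8.96 in the wild-type mice. These groups did not overlap either (log2 change -0.41, SE 0.09, adjusted p = 0.0257).

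Another Ntrk3 probe set, 1447723_at, read 6.24, 6.28, 6.21 and 6.62 in the CHL2 mice and 7.08, 6.73, 7.14 and 7.11 in the wild-type mice. Its 2 closest values came from CHL2 mouse 191 and wild-type mouse 170. It was 1.52-fold lower in the CHL2 mice (log2 change -0.60, SE 0.14, adjusted p = 0.0278). All 8 Ntrk3 probe sets had changes below 0, between -0.60 and -0.0051, and the 2 nearest to 0 were under 5 in all mice. Without mouse 170, 5 of the 8 passed, the added ones being 1422329_a_at (log2 change -0.54, adjusted p = 0.0134) and 1425070_at (log2 change -0.69, adjusted p = 0.0405). On both, mouse 170 was the lowest wild-type animal, at 6.38 against 6.93 to 7.21 and at 4.30 against 4.63 to 5.34. Without mouse 191, changes of the 3 called probe sets were -0.42, -0.61 and -0.83 and none passed (adjusted p 0.0575 to 0.194). Without mouse 161, they were -0.39, -0.52 and -0.37 (adjusted p 0.0945 to 0.403), in the order 1433825_at, 1455917_at, 1447723_at. With sex also left out all 3 passed in both cases.

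Sort1 encodes sortilin, which guides BDNF into the regulated secretory pathway and partners Ngfr in binding precursor neurotrophins. Its brightest probe set, 1423362_at, read 10.00, 10.02, 9.96 and 9.82 in CHL2 mice 141, 153, 154 and 191, against 10.44, 10.60, 10.43 and 10.35 in wild-type mice 161, 170, 180 and 200. The lowest wild-type value stood above the highest CHL2 value by more than the SD of either group. The log2 change was -0.54 (SE 0.10, adjusted p = 0.00911), 1.46-fold lower, with means of 9.95 ± 0.09 in CHL2 and 10.45 ± 0.11 in wild-type mice (SD, n = 4 each). It was -0.45 in the females (without mouse 191, adjusted p = 0.179) and -0.64 in the males (without mouse 161, adjusted p = 0.0590), and it passed in both when sex was also left out.

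The other Sort1 probe sets, designed on the same target sequence, moved less. Probe set 1423363_at read 6.31, 6.22, 6.28 and 6.18 in the CHL2 mice and 6.47, 6.45, 6.53 and 6.39 in the wild-type mice, again without overlap (log2 change -0.24, adjusted p = 0.147). Probe set 1450955_s_at, whose suffix marks probes that can match more than 1 transcript, overlapped between the groups (log2 change -0.05, 95% CI -0.34 to 0.24). The change of 1450955_s_at differed from that of 1423362_at by 0.49 (adjusted p = 0.111) and the change of 1423363_at by 0.31 (adjusted p = 0.283). None of the 21 such differences within member genes passed, where 2.56% of 16752 differences over all genes did, and 5 of the 21 had an unadjusted p under 0.05, as did 13.9% of all differences. On the mean of its probe sets the Sort1 call was lost (log2 change -0.28).

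**Figure D2:**
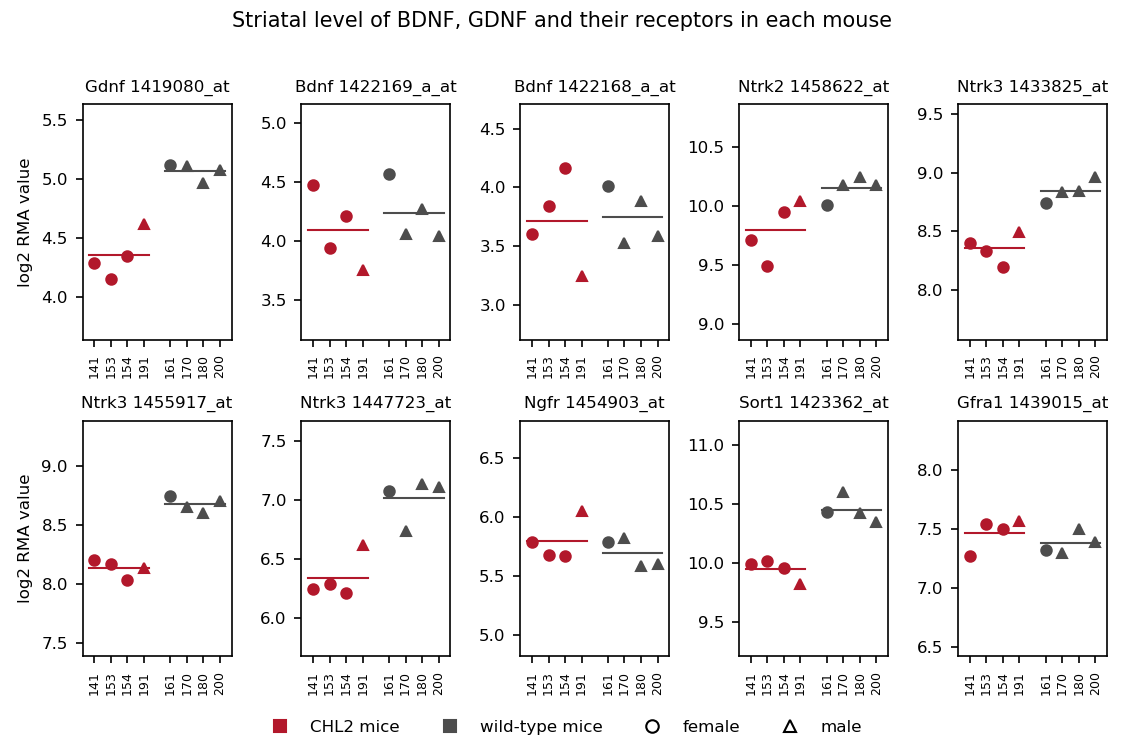
Log2 RMA value (y axis, spanning the same range in each panel) of 10 member probe sets in each mouse (x axis, mouse numbers), with CHL2 mice left, wild-type mice right and lines at the group means. Circles are females and triangles males. Shown are both Bdnf probe sets, the brightest of each other gene and every probe set at an adjusted p under 0.05. In these panels the groups lie apart for Gdnf, the 3 Ntrk3 probe sets and Sort1, and overlap for Bdnf, Ntrk2, Ngfr and Gfra1. Among probe sets not shown, some of Ntrk3 and Sort1 overlap, and 1435196_at of Ntrk2 does not.

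Ngfr and Gfra1 gave no call. The brightest Ngfr probe set, 1454903_at, read 5.78, 5.68, 5.67 and 6.05 in CHL2 mice 141, 153, 154 and 191, against 5.78, 5.82, 5.58 and 5.60 in wild-type mice 161, 170, 180 and 200. CHL2 mouse 191 was the highest of all and the others intermingled (log2 change 0.16, 95% CI -0.11 to 0.42, adjusted p = 0.565). The other 2 Ngfr probe sets were under 5 in all mice. Gfra1, the GDNF co-receptor, read 7.27, 7.54, 7.49 and 7.56 in the CHL2 mice and 7.32, 7.29, 7.49 and 7.39 in the wild-type mice on 1439015_at (log2 change 0.14, 95% CI -0.08 to 0.37, adjusted p = 0.523). Its next probe set, 1450440_at, read 5.20 to 5.37 in the CHL2 mice and 5.13 to 5.37 in 3 wild-type mice, with 4.16 in mouse 170.

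For 17 measured genes of Trk receptors, Ngfr, the sortilin family and GDNF receptors, the median log2 change was -0.14. Over all genes 4.73% fell and 4.54% rose, while of the 17, 3 fell and 0 rose. They were Sort1, Ntrk3 and Sorcs3, a brain sortilin relative, which read 6.60, 7.01, 7.02 and 6.82 in CHL2 mice 141, 153, 154 and 191 and 7.44, 7.23, 7.36 and 7.30 in wild-type mice 161, 170, 180 and 200 (log2 change -0.52, SE 0.12, adjusted p = 0.0311). That call was lost without any of mice 191, 161, 180 and 200. Sorcs2, another relative that partners Ngfr, did not pass (log2 change -0.69, adjusted p = 0.0556), though its groups did not overlap, and it passed in 10 of 20 alternatives, among them the one without mouse 170. Sorl1 stood at -0.22 (adjusted p = 0.257) and Gfra4 at 0.18 (adjusted p = 0.410). The GDNF receptor kinase Ret lay under 5 in all mice. The count of falls was 0 without mouse 161 and 0 without mouse 191, against 4 in each case with sex also left out, and 1 without mouse 200.

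Kinases below the Trk receptors included 3 that fell and 1 that rose among 37 measured adaptor and signalling genes. Over all genes 4.73% fell and 4.54% rose. The median log2 change of the 37 was -0.03. Rps6ka5, the kinase MSK1 that carries the ERK signal to CREB and chromatin, read 8.06, 8.05, 7.97 and 8.19 in CHL2 mice 141, 153, 154 and 191, against 8.61, 9.14, 8.91 and 8.89 in wild-type mice 161, 170, 180 and 200. It was 1.61-fold lower, with no overlap (log2 change -0.69, SE 0.10, adjusted p = 0.00341), and 1 of its 3 probe sets had the opposite sign. Pdpk1, which activates AKT, was 1.48-fold lower (adjusted p = 0.00604), and Akt2 1.44-fold lower (adjusted p = 0.0117). Mapk7, the kinase ERK5, was 1.33-fold higher at an adjusted p = 0.0472 and lost its call in 13 of 20 alternatives. None of the 3 falls remained without mouse 191, and 1 without mouse 161, against 4 and 3 falls with sex also left out.

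Genes whose products bind Ngfr or relay its signal included 3 that rose and 0 that fell among 13 measured, where 4.54% of all genes rose. A log2 change below 0 was found for 2 of the 13, as for 48.8% of all genes, and the median was 0.16. Zfp110, a zinc finger protein that binds the cytoplasmic part of Ngfr, read 6.39, 6.48, 6.47 and 6.73 in CHL2 mice 141, 153, 154 and 191, against 5.73, 6.04, 6.05 and 6.07 in wild-type mice 161, 170, 180 and 200. All CHL2 values were higher (log2 change 0.70, SE 0.08, adjusted p = 0.000955), and the change kept its call in all 20 alternatives. The suffix of its probe set, 1437237_x_at, marks probes that can match other transcripts. Maged1, which encodes the Ngfr-binding protein NRAGE, was 1.52-fold higher, at 10.86 to 10.94 in CHL2 mice and 10.16 to 10.36 in wild-type mice (adjusted p = 0.00352). Bex1, another Ngfr-binding protein, was 1.27-fold higher (adjusted p = 0.0383) and lost its call in 9 of 20 alternatives. Its relative Bex3 did not pass (log2 change 0.27, adjusted p = 0.0992), though its groups did not overlap. Without mouse 191 the count of rises was 1, Maged1 no longer passing (adjusted p = 0.0931), and it was 2 with sex also left out.

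Genes for BDNF processing, transport and release showed 1 fall and 0 rises among 24, where 4.73% of all genes fell and 4.54% rose. The median log2 change of the 24 was -0.03. The fall was Htt, whose protein assists the axonal transport of BDNF vesicles and which carries the expanded repeat here. It read 7.39, 7.37, 7.31 and 7.05 in CHL2 mice 141, 153, 154 and 191, against 7.89, 7.92, 7.87 and 7.76 in wild-type mice 161, 170, 180 and 200 (log2 change -0.67, adjusted p = 0.00281). The call was lost without mouse 191 (log2 change -0.53, adjusted p = 0.0835). Where the Htt probe sets lie relative to the repeat was not analysed here, so this does not check the genotype labels. The neuronal serpin gene Serpini1, an inhibitor of the protease that helps cleave precursor BDNF, stood at 0.47 (adjusted p = 0.0686). The proprotein convertase Pcsk5 stood at -0.45 (adjusted p = 0.0924, all values under 5). The kinesin heavy chain Kif5c was at -0.27 (adjusted p = 0.181). Opposite signs were found for 1 of 3, 1 of 5 and 2 of 4 of their probe sets, in that order.

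Regulators of Bdnf transcription changed in both directions, with 4 falls and 1 rise among 24, where 4.73% of all genes fell and 4.54% rose. The median log2 change of the 24 was 0.03. Camk4, a nuclear calcium-activated kinase that phosphorylates CREB, was 1.99-fold lower, at 9.53, 9.55, 9.61 and 9.74 in CHL2 mice 141, 153, 154 and 191 against 10.51, 10.86, 10.70 and 10.76 in wild-type mice 161, 170, 180 and 200 (log2 change -0.99, SE 0.08, adjusted p = 0.000237). Srf, serum response factor, was 1.73-fold lower, at 7.29 to 7.42 in CHL2 mice and 7.99 to 8.30 in wild-type mice (adjusted p = 0.00179). Both calls held in all 20 alternatives. Bhlhe40, a repressor that binds E-boxes, was 1.42-fold lower (adjusted p = 0.0229). The CREB coactivator Crtc1, which lies outside the fixed naming rule and is named because it completes the count, was 1.37-fold lower (adjusted p = 0.0440), and 2 of its 3 probe sets had the opposite sign. Creb1, the CREB gene itself, was 1.35-fold higher, at 9.25 to 9.51 in CHL2 mice and 8.84 to 9.03 in wild-type mice (adjusted p = 0.0264). Among its 6 probe sets, 2 had changes of the opposite sign, and the mean of the probe sets did not pass (log2 change 0.16). The falls numbered 2 without mouse 161 and 2 without mouse 200. The rise was lost without any of mice 154, 191, 161, 180 and 200, and with sex also left out it remained without 161 or 191.

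Genes induced by neuronal activity and Trk signalling had the lowest median of the 7 lists, -0.86. Of 24, 9 fell and 0 rose, where 4.73% of all genes fell and 4.54% rose. All 24 had sex-adjusted changes below 0, as did 48.8% of all genes. In plain differences of the group means, Dusp5 (0.14) and Dusp4 (0.0067, all values under 5) lay above 0 and the others below it. Homer1, a postsynaptic scaffold, read 10.14, 10.27, 10.14 and 10.11 in CHL2 mice 141, 153, 154 and 191, against 11.00, 11.04, 11.04 and 11.00 in wild-type mice 161, 170, 180 and 200 (log2 change -0.87, SE 0.08, adjusted p = 0.000433). Nptx2, a secreted pentraxin that clusters glutamate receptors, was 2.05-fold lower (adjusted p = 0.000728), Per1 2.04-fold (adjusted p = 0.00187) and Egr3, a transcription factor induced by BDNF in cultured neurons, 1.82-fold (adjusted p = 0.00220). The list's mean level was 6.85 to 7.07 in CHL2 mice and 7.09 to 7.48 in 3 wild-type mice, with 8.16 in mouse 161. Without mouse 161, 2 genes fell, and 7 with sex also left out. Per1 and Egr3 no longer passed there (adjusted p = 0.0581 and 0.0628).

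**Figure D3:**
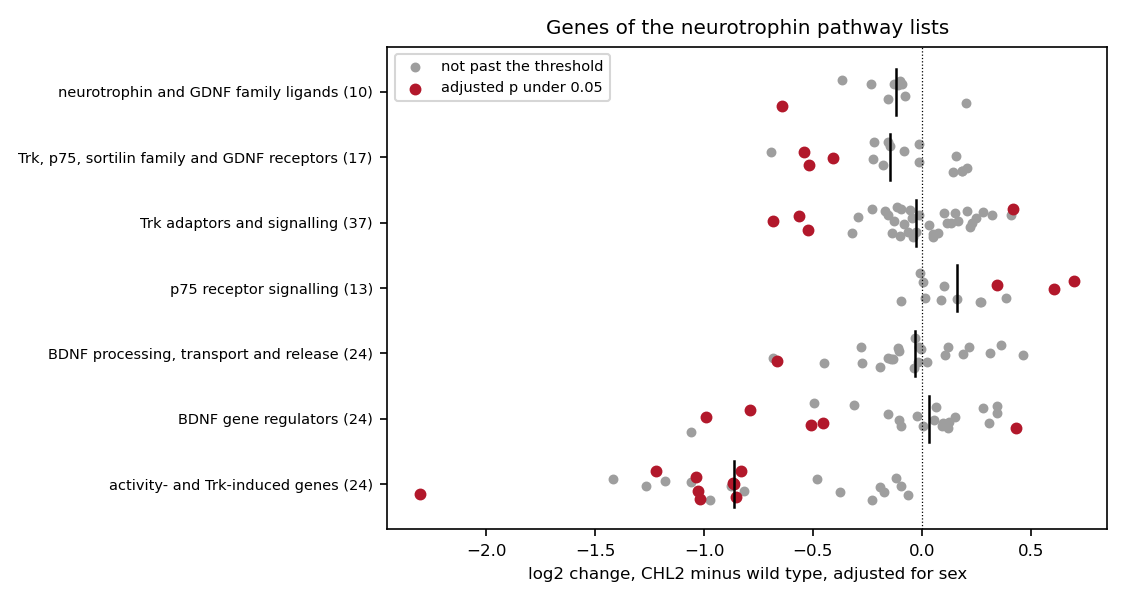
Log2 change, CHL2 minus wild type and adjusted for sex (x axis), of each measured gene in 7 lists (y axis, number of genes in brackets), 1 brightest probe set per gene. Vertical bars are list medians, lowest at -0.86 for activity- and Trk-induced genes and highest at 0.16 for genes around Ngfr. Red points passed an adjusted p under 0.05.

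**Figure D4:**
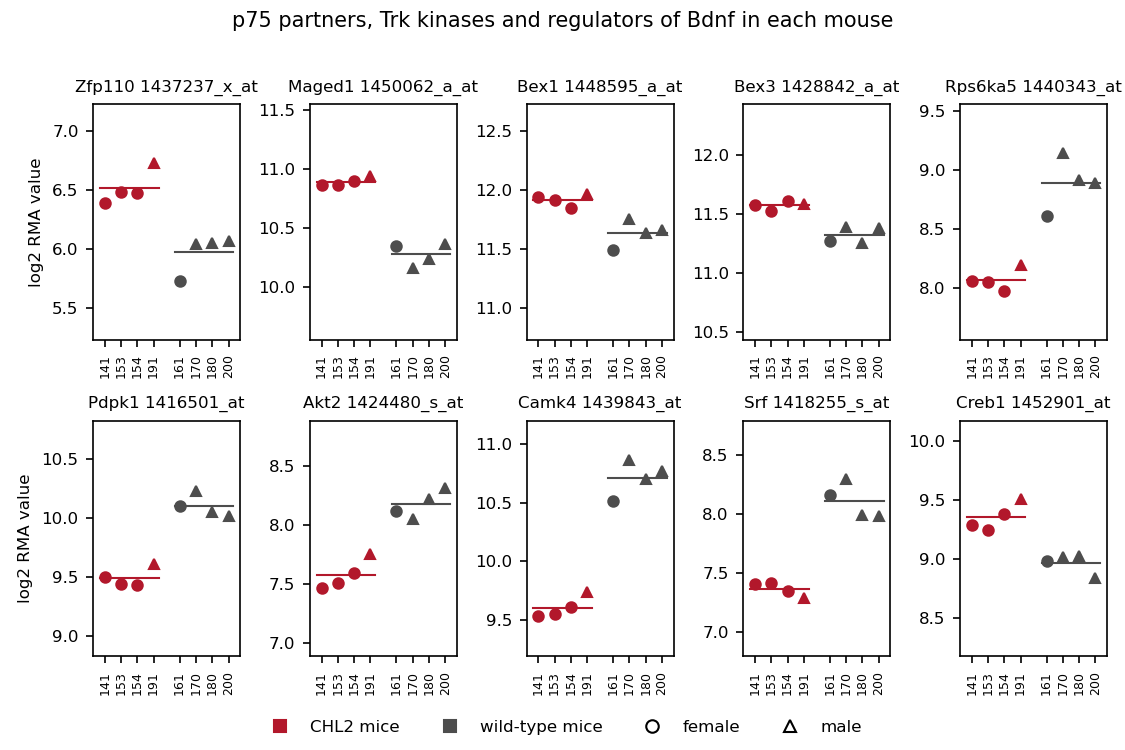
Log2 RMA value (y axis, spanning the same range in each panel) of 10 genes in each mouse (x axis, mouse numbers), CHL2 mice left and wild-type mice right, with lines at the group means. Zfp110, Maged1, Bex1, Bex3 and Creb1 are higher and Rps6ka5, Pdpk1, Akt2, Camk4 and Srf lower in all CHL2 mice than in any wild-type mouse, and all but Bex3 passed the test.

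The genes most like each member over the 8 arrays were found by Pearson correlation with its brightest probe set, among 11302 or 11303 genes with a mean of at least 5. These are descriptions over 8 mice that share the genotype difference. Gdnf lay closest to Lrrk2 (r = 0.996) and Cdc42ep3 (r = 0.990), which fell by 0.89 and 0.85 on the log2 scale. Ntrk3 lay closest to Gnb5 (r = 0.990) and Pde7b (r = 0.984), and Sort1 to Srf (r = 0.987) and Gas2l1 (r = 0.985), and all 4 of these genes fell too. Ntrk2 was nearest to Ak3 (r = 0.984) and Cpeb4 (r = 0.983), Gfra1 to Tmem200c (r = 0.970) and Dram2 (r = 0.965), Ngfr to Rnf139 (r = 0.943) and Rnf128 (r = 0.933), and Bdnf to Sulf1 (r = 0.920) and Cgnl1 (r = 0.919). None of the last 8 genes passed the test of genotype. After each group's mean was taken out, all 14 of these correlations lay between 0.857 and 0.985. The pairs were picked as the closest on these same 8 arrays. High values follow largely from that picking, so they do not test likeness apart from genotype.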

How the data were processed

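Striatal RNA was hybridised to 1 Affymetrix array per mouse. The authors deposited 1 log2 value per probe set and array. RMA and the affy package are named in the submitters' processing notes without versions, and which arrays were normalized together is not stated there. RMA as usually run brings arrays to 1 distribution, so shifts shared by most genes cannot be seen. Of 45101 probe sets, 64 controls were left out, and 34945 of the rest had 1 gene symbol in the platform annotation, 932 several and 9160 none listed. No filter on level was applied. The main test was limma 3.58.1 (R 4.3.3), lmFit and eBayes, with genotype and sex as terms and Benjamini-Hochberg adjustment over 45037 probe sets. List genes were represented by their brightest probe set of the same fit. Differences between probe sets of a gene and the interaction with sex were fitted likewise. The code was tested on simulated data. Alternatives were other normalizations, priors, weights, floors, features and left-out mice. Members, lists and tests were chosen with earlier results of these data known. By a fixed rule, named genes were all member probe sets, Htt, the 4 other genes of each pathway list with the lowest adjusted p and the 2 genes most like each member. Crtc1, Ret, Ntf5, Dusp4, Dusp5 and the named cell type markers, Pvalb among them, lie outside that rule. Mouse numbers name animals and are not shared between groups. The number of mice, 4 per group, limits precision.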

Additional observations from a re-analysis of the deposited data

Results flagged for a closer look

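Single mice stood far from the other 3 of their group for 4 of 56 combinations of member probe set and group, where chance gives about 1 in 20. For Ntrk3 1422329_a_at, CHL2 mouse 191 was low at 6.46, against 6.67 to 6.71 in the other CHL2 mice. For Ntrk3 1447723_at, wild-type mouse 170 was low at 6.73, where its group otherwise read 7.08 to 7.14. For Ntrk3 1426003_at, wild-type mouse 161 was high at 3.72, against 3.45 to 3.48. For Ngfr 1421241_at, CHL2 mouse 153 was low at 3.46, against 3.74 to 3.78. The last 2 probe sets were under 5 in all mice.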

How the results depend on the processing

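Member probe sets that fell numbered 5, and 4 or 5 in the alternatives not named here. The count was 3 with 1 probe set per gene, 2 when probe sets were averaged per gene, 2 with no moderation, 3 at an adjusted p under 0.01, and 0 to 7 when 1 mouse was left out. Leaving out wild-type mouse 161 or CHL2 mouse 191 leaves 1 sex in a group, and the sex-adjusted fit then rests on 1 mouse against 3. No member rose in any alternative. Pathway genes that fell numbered 21, but 12 with no moderation and 6 to 22 with 1 mouse left out, and those that rose numbered 5, but 9 with values held at the dim level and 1 to 4 with 1 mouse left out. Of 500 alternative values of member log2 changes, 25 turned their sign, 19 lost their call and 3 gained one. None of the reversed changes had been called, and the cause was not tested.

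With sex left out, Bdnf 1422168_a_at became 0.049 without mouse 161 and 0.12 without mouse 191, and Ntrk3 1443970_at 0.046 without mouse 191. Ngfr 1450177_at became 0.020 with sex left out, 0.045 and 0.029 also without mouse 161 or 191, 0.000587 after quantile normalization and 0.014 with array weights. Ntrk3 1443970_at became 0.0054 after quantile normalization and 0.0035 with median centring, and Ntrk2 1420837_at -0.00905 with array weights. With 1 mouse left out, log2 changes spanned 0 from -0.34 to 0.55 for Ntrk2 1420837_at, -0.050 to 0.17 for Ntrk2 1444121_at, -0.20 to 0.18 for Ntrk3 1443970_at, -0.29 to 0.039 for Ntrk3 1426003_at, -0.073 to 0.38 for Ngfr 1454903_at, -0.055 to 0.030 for Ngfr 1450177_at, -0.16 to 0.060 for Sort1 1450955_s_at, -0.22 to 0.015 for Gfra1 1421973_at and -0.24 to 0.65 for Manf. No paired analysis was possible because each mouse number names 1 animal of 1 group. Signal limits the dim probe sets, and 4 mice per group limit the rest.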

Other observations

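Of 94 measured markers in the 9 lists other than medium spiny neurons, 9 passed (9.57%), where 9.27% of all genes did, and those named here were picked after their values were seen. Of 12 endothelial and mural markers none passed the limma test, and 10 had changes below 0, as did 48.8% of all genes. The list's mean level was 6.51 to 6.62 in CHL2 mice against 6.70 to 6.98 in wild-type mice, without overlap. Among 7 oligodendrocyte precursor markers Olig1 rose (log2 change 0.43, adjusted p = 0.0329), and the list's mean was 7.87 to 7.98 in CHL2 mice and 7.72 to 7.87 in wild-type mice. Of 13 astrocyte markers, S100b rose (log2 change 0.42, adjusted p = 0.0191) and the bicarbonate transporter gene Slc4a4 fell (log2 change -0.46, adjusted p = 0.0128). Of 10 oligodendrocyte markers, Opalin rose (log2 change 0.31, adjusted p = 0.0408) and Mobp fell (log2 change -0.38, adjusted p = 0.0444). The 9 microglia, 8 cholinergic neuron and 10 Schwann, meningeal and choroid plexus markers held no call in the limma test, and Nos1 was the only 1 of 12 other interneuron markers to fall (log2 change -0.43, adjusted p = 0.0252).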
